A study of Homo sapiens with 12 samples.

Results

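For a messenger RNA, its share in heavy polysomal (HP) RNA, the RNA found with many ribosomes after centrifugation, can be set against its share in the total RNA of the same cells. This was done here for HCT116 cells, an established human colorectal cancer line labelled wild-type, 48 h after transfection with an siRNA against hnRNP U or with a control siRNA. The quantity described is the HP/total change: the log2 ratio of HP to total RNA with hnRNP U siRNA minus the same log2 ratio with control siRNA. All 12 libraries of the series entered it, namely 3 of total RNA and 3 of HP RNA for each siRNA. The sample titles call the total RNA input. Whether it came from whole cells or from the lysate put on the gradient is not stated in the study's methods. Each of 3 experiments gave 1 control culture and 1 hnRNP U siRNA culture, and the HP and total RNA of a culture were paired, so the comparison is of 3 cultures against 3. Of 62703 genes in the count table, 15920 had enough counts to be tested. The labels do not say which of the hnRNP U siRNA sequences was used, both arms share the transfection reagent, and all samples are 1 cell line.

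A ribosome-bound mRNA carries more ribosomes the more often translation starts on it, and sediments further in a sucrose gradient. Heavy fractions therefore hold mainly mRNAs of the cytosol under active translation, together with other dense particles that co-sediment. hnRNP U, also called SAF-A, is an abundant RNA-binding protein of the nucleus that acts in chromatin organization and splicing, and the study asks about its part in the translation of mRNAs with RNA G-quadruplexes (RG4s). An RG4 is a stack of planar guanine quartets that can form where runs of G lie close together in an RNA. A 5′ terminal oligopyrimidine (TOP) tract, a C at the cap followed by C or U, marks mRNAs of ribosomal proteins and some translation factors, whose translation follows growth signals.

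Library totals ran from 30305012 to 39761103 counts. EPCAM, KRT8, KRT18, KRT19, CDH1 and CDX2, markers of colorectal epithelium, were expressed in every library, whereas CEACAM5 had 0 counts in all 12 and VIL1 at most 1 count. Of 9 markers of other cell types, COL1A1 reached 17.4 CPM (counts per 1000000 counts) and the rest stayed at or below 0.434 CPM. No 2 libraries among 66 pairs held identical counts. Since the libraries were scaled to each other by TMM, a change of all mRNAs at once in HP RNA would not appear. In such bulk RNA, fewer cells of a type and less RNA per cell cannot be told apart.

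Sequences are shown first for the features that the results are grouped by. TOP-like starts of mRNAs called higher are given as the first 20 bases of the canonical GENCODE transcript, with the leading C and the pyrimidines that follow it in capitals. The start of ODC1, also called higher, is added because it has no such tract. Of the mRNAs called lower, 5 had a TOP-like start too, among them GSTO2, and these are not shown.
EIF4A2 (chr3:186783577-186783596, plus strand): CTTTTCagtcgggcgctgag
RPLP0 (chr12:120201092-120201111, minus strand): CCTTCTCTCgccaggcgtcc
RPLP1 (chr15:69452818-69452837, plus strand): CCCCTTTCCTCagctgccgc
RPL12 (chr9:127451387-127451406, minus strand): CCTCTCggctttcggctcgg
ODC1 (chr2:10448308-10448327, minus strand): gtcagtccctcctgtagccg
These are 5′ UTR bases of GRCh38, and the tract ran over 9 bases in RPLP0 and 11 in RPLP1. RG4 motifs are given for 2 of the mRNAs called lower and 1 called higher, since hnRNP U has been tied to such sequences, with the runs of G in capitals.
PTAR1, lower (chr9:69717013-69717033, minus strand, 3′ UTR): GGGatgaGGGtGGGGaatGGG
BICD1, lower (chr12:32327632-32327656, plus strand, CDS): GGGGagaaGGGccGGGactcaGGGG
PTMS, higher (chr12:6770856-6770876, plus strand, 3′ UTR): GGGGtGGGGccGGGGttGGGG
A motif is only a match of letters; whether it folds in these cells is not measured by the libraries.

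The HP/total change was small for nearly all genes. In edgeR's quasi-likelihood test, 140 genes passed an adjusted p of 0.05 (0.879% of the 15920), of which 97 were higher (0.609%) and 43 were lower (0.27%). HNRNPU itself and mRNAs such as NAPB, THUMPD2 and PTAR1 stood lower, but no member of the 22 gene lists examined was called lower in this fit. Transcripts of the mitochondrial genome, ribosomal protein mRNAs, snoRNA host RNAs, ODC1 and EIF4A2 stood higher, the ribosomal protein mRNAs as a group mainly in experiment 1. The middle 50% of genes spanned 0.191 log2 units, against 0.517 for the siRNA effect in total RNA and 0.567 in HP RNA. In total RNA 57.3% of the genes were called (9123) and in HP RNA 51.7% (8237), and 5 genes passed in both with opposite signs. Of the 140 calls, 111 were below 0.5 in absolute log2 change and 2 reached 1, HNRNPU and MT-ATP8. For 66.1% of all genes the 95% interval of the change lay within 0.5 of 0 on the log2 scale, and for 80.2% within 1, so that a 2-fold change of HP/total was outside the interval for most genes.

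**Figure D1:**
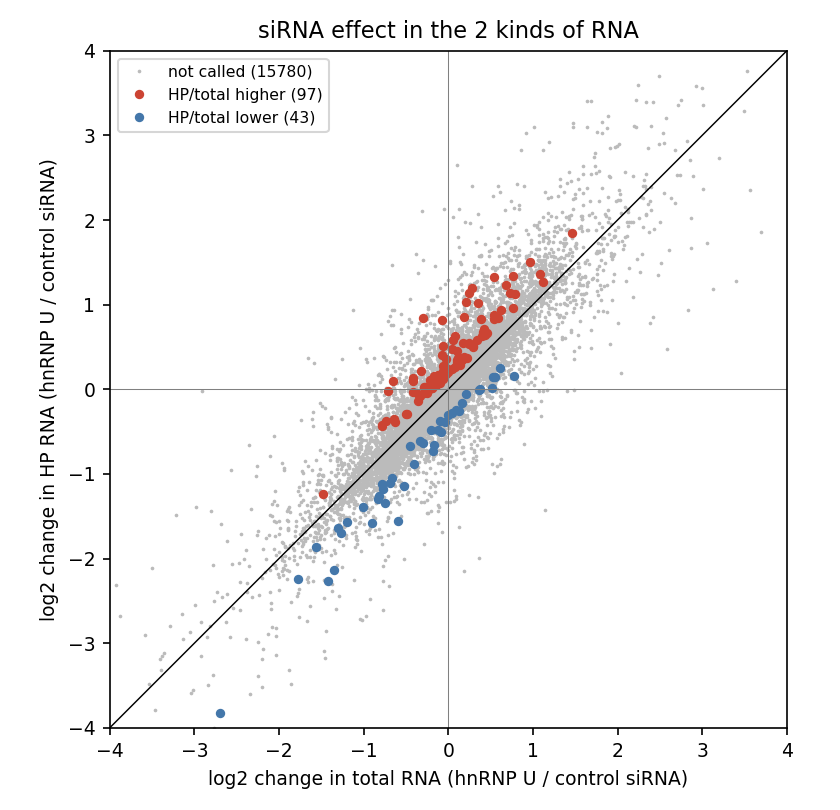
Each point is 1 of the 15920 genes, with its log2 change in total RNA on the x axis and in HP RNA on the y axis (hnRNP U siRNA over control siRNA, from fits of 6 libraries each; 28 genes lie outside the axes). Genes called higher in HP/total (97, red) lie above the diagonal and genes called lower (43, blue) below it, and both sets stay close to it.

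How many genes were called, and which way, depended on the settings. The 2 libraries of a culture deviated together from their group means (r 0.233 to 0.51 over 9777 genes), and libraries of the same experiment did so too, with r of 0.306 to 0.445 in HP RNA and 0.134 to 0.357 in total RNA. A fit with both the culture and an experiment-by-fraction term called 647 genes, 494 higher and 153 lower, the 140 among them. A fit without any block called 26, 13 each way. The split into higher and lower moved with the scaling, because the median gene stood at 0.035 under TMM. It stood at 0.00055 under DESeq2's size factors (45 higher, 58 lower), at 0.0099 under upper-quartile factors (53 and 53) and at −0.037 when mitochondrial-genome genes were taken out before TMM (22 and 139). The 140 genes, or the 129 of them still tested in that last fit, kept their sign in every one of these fits, whereas the excess of higher over lower calls did not hold. Leaving out 1 culture with both its libraries gave 65, 60 and 48 calls without hnRNP U siRNA replicates 1, 2 and 3, and 76 without control replicate 1. Leaving out control replicates 2 and 3 gave 139 and 152.

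**Figure D2:**
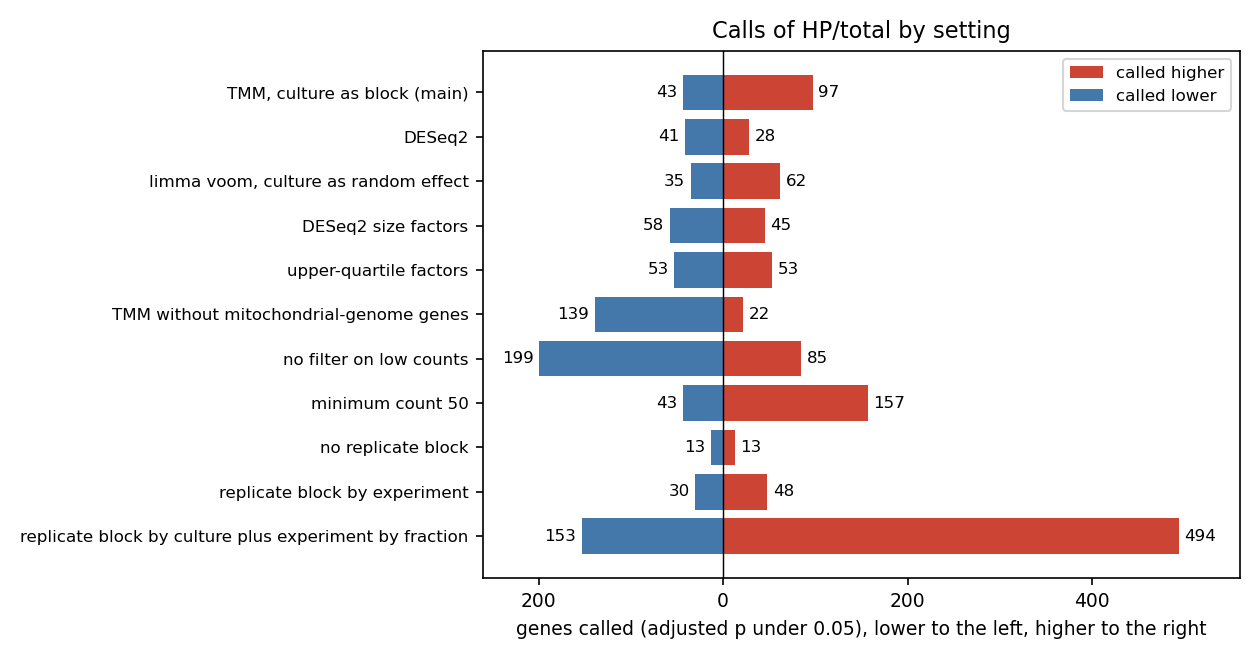
Bars give the genes called at an adjusted p under 0.05 in each fit of the HP/total change, with lower calls to the left and higher calls to the right. The side with more calls changes with the scaling: 97 higher and 43 lower under TMM, 22 and 139 when the mitochondrial-genome genes are removed first.

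The experiments could be read against each other. Genes called from experiments 2 and 3 alone numbered 44, and 43 of them had the same sign in experiment 1. From experiments 1 and 3 there were 59 calls and from experiments 1 and 2 there were 25, all with the same sign in the experiment left out. Over all genes the corresponding shares were 58.7%, 60.6% and 60.3%. Across the 6209 genes whose average log2 CPM reached 5, the changes of any 2 experiments correlated with r of 0.416 to 0.514. Across all 15920 it was 0.0391 to 0.078, and genes are not independent replicates. In all 140 called genes the 3 cultures of one siRNA lay on one side of the other 3. The calls were made from these same cultures, so this separation gives them no further support. Among all genes this held for 13% in the higher direction and 5.89% in the lower.

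The called genes were also sorted by which kind of RNA had moved. Of the 97 higher genes, 37 rose in both kinds of RNA and more in HP RNA, 20 were called in HP RNA only, and 27 were called in total RNA only, where every one of the 27 was lower. A further 8 fell in both but less in HP RNA, 2 moved in opposite ways, and 3 passed in neither fit alone. Of the 43 lower genes, 27 fell in both and more in HP RNA, 6 were called in HP RNA only, 7 were called in total RNA only (each of them higher there), 2 moved in opposite ways and 1 rose in both but less in HP RNA. Among all 15920 genes, 30.1% were called in both with the larger change in HP RNA, against 45.7% of the 140. For HP RNA only the shares were 6.71% of all and 18.6% of the 140, and for total RNA only 12.3% and 24.3%. A change the same way but larger in total RNA was found in 14.9% of all and 6.43% of the 140. Opposite changes made up 0.0314% and 2.86%, and neither fit alone called 36% and 2.14%. By annotation, 131 of the 140 were protein-coding, as were 12758 of the 15920 genes tested. Long noncoding RNAs gave 5 of the 140, out of 2318 tested. Another 2 were mitochondrial ribosomal RNAs and 2 were pseudogenes, and 11 of the 140 lay on the mitochondrial chromosome.

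HNRNPU (chr1:244840638-244864560), the target of the siRNA, had the largest lower value among the called genes. In control cultures its level was 992, 1106 and 986 CPM in total RNA and 1022, 1145 and 1074 CPM in HP RNA. With hnRNP U siRNA it was 168, 149 and 160 CPM in total RNA but 82.4, 75.2 and 77.1 CPM in HP RNA. The log2 ratio of HP to total RNA was thus 0.04, 0.05 and 0.12 in control cultures and −1.02, −0.98 and −1.06 in hnRNP U siRNA cultures. Both sets were narrow and far apart. The HP/total change was −1.09 (SE 0.04, edgeR adjusted p = 3.2e-11), so the remaining HNRNPU transcripts were represented in HP RNA at a lower ratio than the transcripts of control cells. The call held in all 16 alternative fits. Here and below, the alternatives counted for a gene do not include the fits that left out a whole experiment.

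Lower HP/total values were otherwise led by NAPB and THUMPD2. NAPB, a SNAP protein that takes SNARE complexes apart after vesicle fusion, had log2 ratios of −0.41, −0.17 and −0.42 in control cultures and −1.27, −1.31 and −1.23 with hnRNP U siRNA. Its HP/total change was −0.94 (SE 0.12, adjusted p = 0.0003), with levels of 3.45 to 4.06 CPM in HP RNA of hnRNP U siRNA cultures. THUMPD2, an RNA methyltransferase of the THUMP domain family, had ratios of 0.21, 0.16 and 0.19 in control cultures and −0.56, −0.75 and −0.59 with hnRNP U siRNA, a change of −0.82 (SE 0.09, adjusted p = 0.00011). In both genes each hnRNP U siRNA culture lay below each control culture. Both mRNAs also fell in total RNA, NAPB by 0.59 and THUMPD2 by 1.42 on the log2 scale, and further in HP RNA.

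The same double fall, larger in HP RNA, was found for most of the remaining lower genes named here. PTAR1, of the protein prenyltransferase family, went from ratios of −0.55, −0.57 and −0.48 to −1.20, −1.09 and −0.997, a change of −0.56 (SE 0.07, adjusted p = 0.00019). FAH, the last enzyme of tyrosine breakdown, changed by −0.65 (SE 0.12, adjusted p = 0.010). FAM135A changed by −0.59, GRTP1, a TBC-domain protein, by −0.52, LRRC40 by −0.46 and UBE3B, a HECT ubiquitin ligase, by −0.45. TMTC4, a mannosyltransferase of the endoplasmic reticulum, changed by −0.44. FAH was lost in 3 of 16 alternative fits and TMTC4 in 4, the others in none. The fit without experiment 3, which is not among the 16, called only 4 genes lower in all, so most of these calls were lost there.

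HPS1 and BICD1 reached a lower ratio by another route, since their total RNA rose while their HP RNA did not pass the test. HPS1, a subunit of the complex that activates Rab proteins for lysosome-related organelles, stood at 21.1, 20.6 and 20.9 CPM in total RNA of control cultures and at 38.5, 35.2 and 34.0 CPM with hnRNP U siRNA. In HP RNA it stood at 12.2, 12.1 and 12.98 CPM and at 13.1, 14.9 and 14.7 CPM. The HP/total change was −0.59 (SE 0.09, adjusted p = 0.0033). BICD1, an adaptor between dynein and its cargo, had control ratios of −0.06 in each culture and −0.57, −0.48 and −0.53 with hnRNP U siRNA. Its change was −0.47 (SE 0.07, adjusted p = 0.00099), while its total RNA alone changed by 0.51 and its HP RNA by 0.02 on the log2 scale. For both mRNAs the hnRNP U siRNA and control ratios did not overlap, and the difference lay in total RNA.

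**Figure D3:**
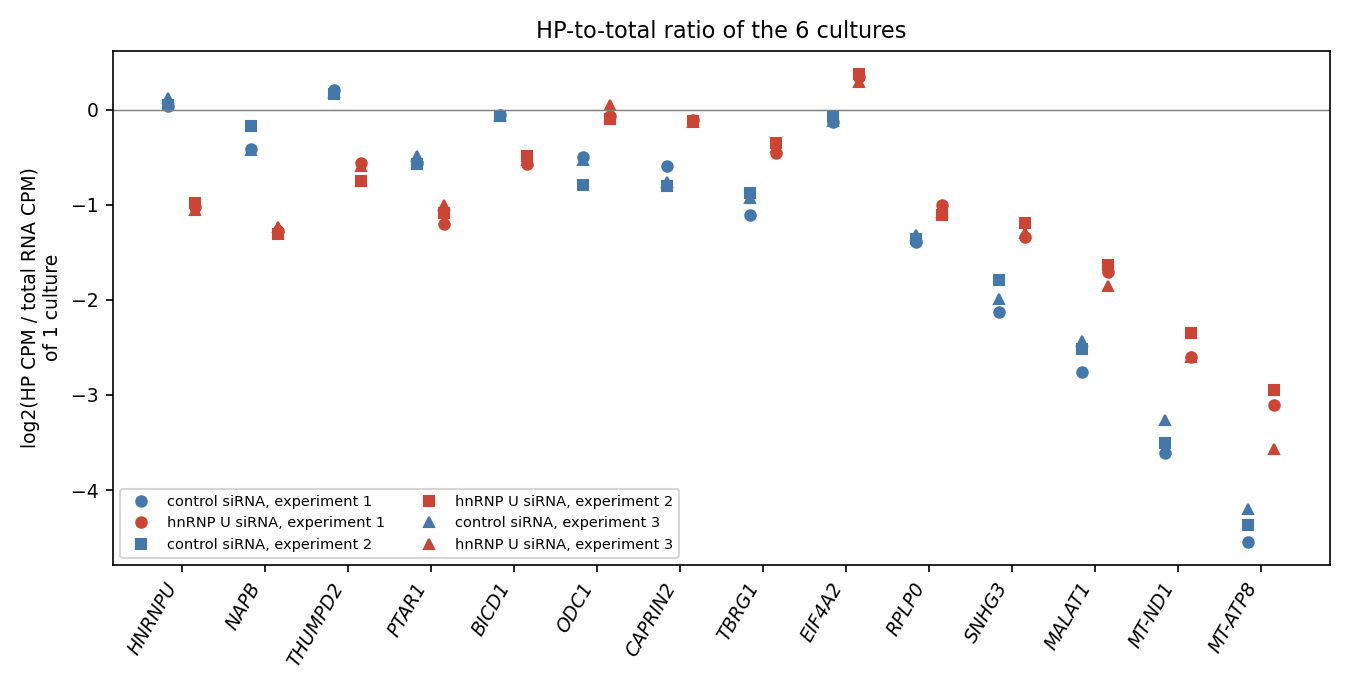
Each point is the log2 ratio of HP to total RNA CPM in 1 culture, for 14 called genes, with control siRNA in blue and hnRNP U siRNA in red and a symbol for each of the 3 experiments. In each gene the 3 red points lie on one side of the 3 blue points, below for HNRNPU to BICD1 and above for ODC1 to MT-ATP8.

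Among the higher nuclear-encoded genes, ODC1 had the highest expression of those with a change over 0.5. ODC1 is the rate-limiting enzyme of polyamine synthesis, whose translation is known to respond to its structured 5′ UTR. Its level in total RNA was 761, 781 and 739 CPM with control siRNA and 840, 791 and 753 CPM with hnRNP U siRNA, which did not pass the test. In HP RNA it was 541, 453 and 514 CPM with control siRNA and 800.5, 737 and 780.4 CPM with hnRNP U siRNA. The ratio went from −0.49, −0.79 and −0.52 to −0.07, −0.10 and 0.05, a change of 0.56 (SE 0.06, adjusted p = 0.0001) that held in all 16 alternative fits. OAZ1, the antizyme that sends ODC1 to the proteasome and is made by a ribosomal frameshift set by polyamines, changed by 0.26 (SE 0.05, adjusted p = 0.013), with a fall of 0.24 in total RNA. OAZ1 was called in 12 of 16 alternatives. Of the 10 genes of polyamine synthesis and its control that were tested, these 2 passed and the median was 0.064.

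CAPRIN2, an RNA-binding protein, rose in both kinds of RNA. It went from 18.2 to 18.8 CPM in control total RNA to between 30.7 and 31.9 CPM, and from 10.6 to 12.5 CPM in control HP RNA to between 28.5 and 29.3 CPM. Its HP/total change was 0.60 (SE 0.08, adjusted p = 0.00041), and the hnRNP U siRNA ratios of −0.11, −0.11 and −0.13 lay close together above the control ratios of −0.59, −0.80 and −0.76. TBRG1, a growth inhibitor, moved in HP RNA only, with ratios of −1.11, −0.88 and −0.93 in control cultures and −0.46, −0.35 and −0.39 with hnRNP U siRNA. Its change was 0.57 (SE 0.07, adjusted p = 0.0002). Both calls held in each of the 16 alternatives. ZBTB20, a zinc-finger repressor, changed by 0.69 (SE 0.12, adjusted p = 0.0086). WDR5B, a WD-repeat protein, and IFT172, of the machinery that builds cilia, changed by 0.59 and 0.57, both had a mean log2 CPM close to 3, and each call was lost in 11 of 16 alternatives.

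EIF4A2, an RNA helicase that serves translation initiation and whose introns hold snoRNAs, was the nuclear-encoded mRNA called higher with the smallest p. It had 301, 261 and 268 CPM in total RNA with control siRNA and 464, 456 and 457 CPM with hnRNP U siRNA. In HP RNA it had 276, 250 and 247 CPM and 589, 592 and 561 CPM. Its ratio went from −0.12, −0.06 and −0.12 to 0.34, 0.38 and 0.29. The change was 0.44 (SE 0.04, adjusted p = 1.4e-05) in edgeR, with values of 0.47, 0.44 and 0.42 in the 3 experiments, and held in all 16 alternatives. Its mRNA begins with the 6 pyrimidines shown above. Of 45 other genes for translation initiation and termination factors, 0 passed in edgeR with the culture block, DESeq2 or limma, 11 had an unadjusted p under 0.05 in edgeR, and the median was 0.05. With the experiment-by-fraction term added, 4 of the 45 were called, all higher. Among all 15920 genes, 2141 (13.4%) had an unadjusted p under 0.05 in edgeR, and 647 were called with that term.

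Ribosomal protein mRNAs, the classical TOP mRNAs, stood higher as a group, by a small amount that was largest in experiment 1. Of 79 genes, 8 were called higher (10.1% against 0.609% of all genes) and 0 lower, 72 lay above 0 and 70 above the median of all genes. The median was 0.135, 0.1 above that of all genes. It was 0.29 in experiment 1 but 0.039 and 0.033 in experiments 2 and 3. Without experiment 1 the median was −0.0082, where that of all genes was −0.032, 45 of 79 lay above the latter and edgeR called 0. RPLP0, a protein of the ribosomal stalk, had ratios of −1.39, −1.36 and −1.31 in control cultures and −1, −1.11 and −1.07 with hnRNP U siRNA. Its change was 0.29 (SE 0.04, adjusted p = 0.00097), with 0.39, 0.25 and 0.24 in the experiments. RPLP1, its stalk partner, changed by 0.32, RPL12 by 0.32 and RPS20 by 0.33. These 4 were above 0.2 in each experiment, unlike the group. RPLP0, RPL12 and RPS20 were lower in total RNA and did not pass in HP RNA. Processed pseudogenes share reads with ribosomal protein genes, so these counts carry that uncertainty. With the experiment-by-fraction term 26 of the 79 were called, all higher.

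The other TOP mRNAs showed a like shift. All 23 tested lay above 0 and 22 above the median of all genes, at a median of 0.132, and 2 were called, EIF4A2 and PABPC1. PABPC1, the cytosolic poly(A)-binding protein, changed by 0.21 (SE 0.04, adjusted p = 0.026) and lost its call in 11 of 16 alternatives. When mitochondrial-genome genes were removed before TMM, 16 of the 23 lay above 0. Without experiment 1 the median was 0.013, and 21 of 23 lay above the median of all genes. Read by sequence rather than by list, 691 of 12744 protein-coding genes (5.42%) began with a C and at least 4 more C or T. Of these 16 were called higher (2.32%, against 0.62% of all 12744) and 5 lower (0.724%, against 0.33%). They made up 20.3% of the 79 higher nuclear-encoded mRNAs. Without ribosomal protein genes, 8 of 631 were called higher (1.27%) and 5 lower (0.792%), at a median of 0.036. These 8 were 10.1% of the higher and the 5 were 11.9% of the lower mRNAs. The median of all TOP-like starts was 0.047, against 0.029 without one. Annotated starts can differ from those used in these cells, and the match is a description.

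Transcripts of the mitochondrial genome had the largest values among the higher calls. They are made and translated inside mitochondria by the organelle's own ribosomes, so their place in HP RNA is not that of a cytosolic mRNA, and they made up 0.868% to 1.29% of HP RNA counts against 8.84% to 11.4% of total RNA. Of 13 protein-coding genes 9 were called higher and 0 lower, with a median of 0.40, and both ribosomal RNAs were called. The annotated spans of MT-ATP8 (8366 to 8572) and MT-ATP6 (8527 to 9207) overlap on the same strand. Those of MT-ND4L and MT-ND4 do so too, so the 13 genes cannot be read as 13 separate mRNAs. MT-ND1, a complex I subunit, had 3463, 4551 and 4562 CPM in total RNA and 283, 400.1 and 475 CPM in HP RNA of control cultures. With hnRNP U siRNA it had 4026, 3795 and 4140 CPM in total RNA and 662, 745 and 685 CPM in HP RNA. Its change was 0.94 (SE 0.07, adjusted p = 2.3e-06). MT-ATP8, of the ATP synthase, changed by 1.17 (SE 0.13, adjusted p = 9.7e-05) from ratios of −4.54, −4.37 and −4.20 to −3.11, −2.95 and −3.57, at only 5.04 to 12.05 CPM in HP RNA. MT-ND2 changed by 0.95, MT-CYB, of complex III, by 0.80, MT-ND4L by 0.73 and MT-ATP6 by 0.56. MT-CYB, MT-ND4L and MT-ATP6 fell in total RNA and did not pass in HP RNA.

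The rest of the mitochondrial list varied widely. MT-ND3 had a change of 0.02 (SE 0.10), MT-ND6, the mRNA of the light strand, 0.14 (SE 0.06, adjusted p = 0.31), MT-CO3 0.22 and MT-CO1 0.29, and none of these passed. MT-ND5, MT-ND4 and MT-CO2 passed at 0.40, 0.40 and 0.33, with calls lost in 4, 5 and 10 of 15 alternatives. MT-RNR2 and MT-RNR1, the ribosomal RNAs of the organelle, changed by 0.82 (SE 0.08, adjusted p = 1.4e-05) and 0.41 (SE 0.09, adjusted p = 0.034). MT-RNR1 lost its call in 7 of 15 alternatives. In total and HP RNA alone MT-RNR2 rose by 0.54 and 1.33, and MT-RNR1 by 1.46 and 1.85. The median of the 13 protein-coding genes was −0.47 in total RNA. The libraries were poly(A)-selected, so the values of the ribosomal RNAs are not read as their levels. The mitochondrial medians were 0.55 and 0.55 in experiments 1 and 2 and 0.13 in experiment 3. As a share of library counts, the log2 ratio of HP to total RNA was −3.64, −3.42 and −3.21 in control cultures and −2.96, −2.78 and −2.95 with hnRNP U siRNA. The sets did not overlap and differed by 0.529, at an exact two-sided permutation p of 0.1, the smallest that 3 against 3 allows. MTND2P28 on chromosome 1, a pseudogene copy of mitochondrial sequence, changed by 0.96, and its reads cannot be separated with certainty from those of MT-ND2. How mitochondria or their ribosomes came into HP RNA was not tested.

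Of 2318 long noncoding RNAs tested, 5 were called higher and 0 lower, a smaller share called higher than among all genes (0.609%). SNHG3, a host RNA whose introns carry snoRNAs, had ratios of −2.13, −1.79 and −1.99 in control cultures and −1.34, −1.19 and −1.30 with hnRNP U siRNA, a change of 0.69 (SE 0.07, adjusted p = 7.1e-05). It held in all 16 alternatives. SNHG1 changed by 0.32 and SNHG17 by 0.46, with calls lost in 9 and 6 of 16. Of 27 snoRNA host genes tested these 3 passed, none was lower, 23 lay above 0 and 21 above the median of all genes, at a median of 0.162. By experiment the medians were 0.30, 0.13 and −0.0065. MALAT1, a long noncoding RNA of nuclear speckles, had ratios of −2.75, −2.51 and −2.43 in control cultures and −1.71, −1.63 and −1.86 with hnRNP U siRNA. In HP RNA it stood at only 2.92 to 4.18 CPM in control cultures and 6.63 to 8.89 CPM with hnRNP U siRNA. It changed by 0.84 (SE 0.11, adjusted p = 0.00075) and was the only call among 11 nuclear-retained RNAs, of which 7 lay above 0 and 2 had an unadjusted p under 0.05. limma with culture as a random effect and the fit with no block did not call it, and without experiment 1 its adjusted p was 0.058 at a change of 0.66. As a share of counts, the nuclear-retained RNAs together had a log2 HP to total ratio of −1.63 ± 0.034 (SD, n = 3) in control cultures and −1.69 ± 0.032 (SD, n = 3) with hnRNP U siRNA (exact permutation p = 0.1). These shares are of raw library counts, without the TMM scaling behind the value of MALAT1. The mean TMM factors were 1.029 in total RNA and 0.978 in HP RNA with control siRNA. With hnRNP U siRNA they were 1.052 and 0.945. The summed share thus showed no rise of the size seen for MALAT1.

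**Figure D4:**
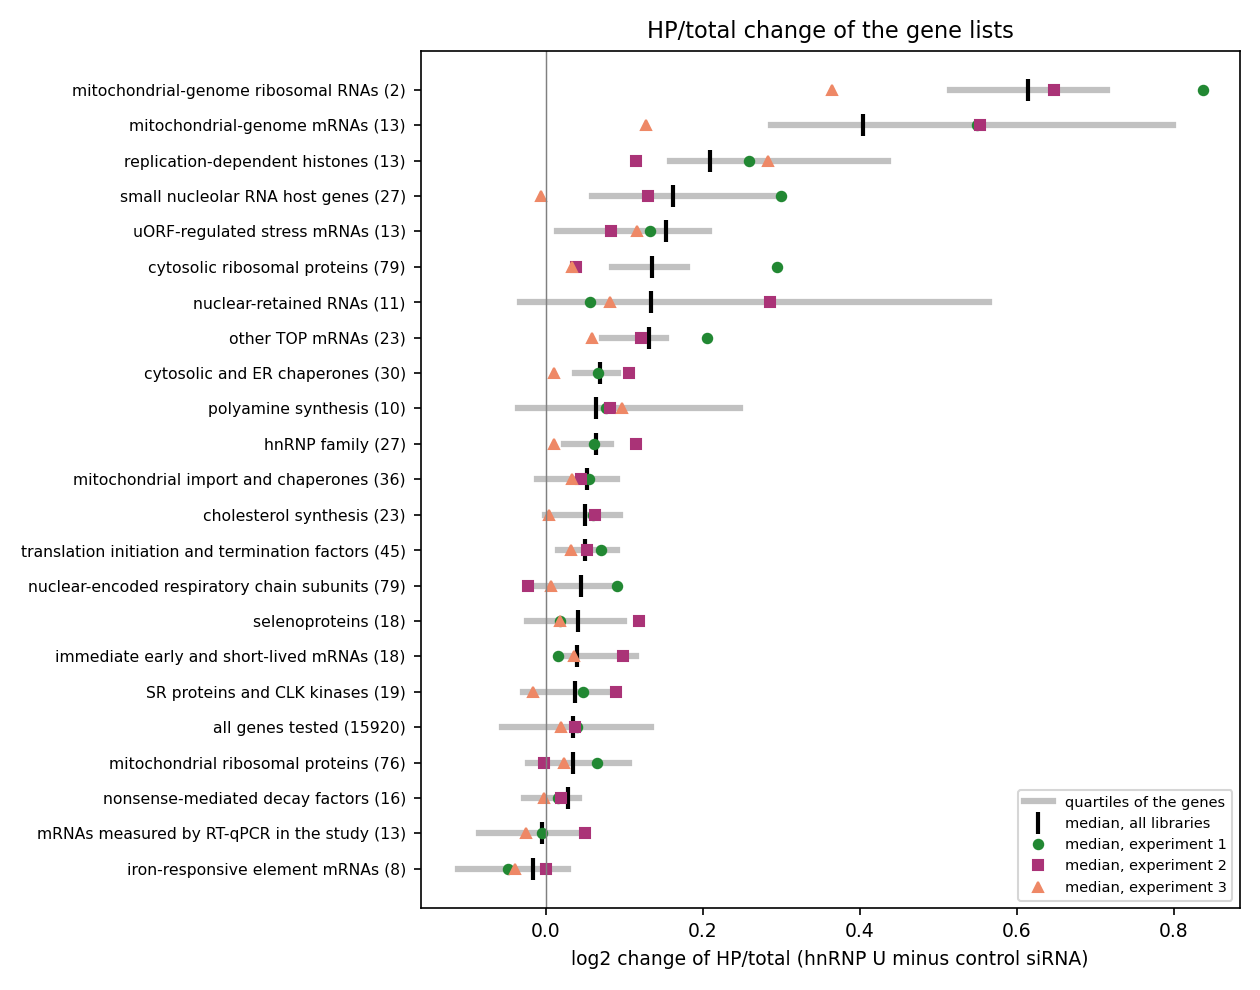
For each gene list, with the number of genes tested in brackets, the bar is the list's median HP/total change over all libraries, the grey line spans its quartiles and the symbols are the medians of the 3 experiments. Mitochondrial-genome RNAs lie farthest to the right, ribosomal protein genes are high in experiment 1 only (0.29, against 0.039 and 0.033), and most other lists lie near the median of all genes at 0.035.

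Nuclear-encoded genes of mitochondria, which the study follows, did not shift as a group. Of 79 subunits of the respiratory chain and ATP synthase, 2 were called higher and 0 lower, at a median of 0.045, with 46 of 79 above the median of all genes when mitochondrial-genome genes were removed before TMM. ATP5MK, a small subunit of ATP synthase, changed by 0.38 (SE 0.07, adjusted p = 0.020) and UQCRH, the hinge protein of complex III, by 0.24 (SE 0.05, adjusted p = 0.045). UQCRH lost its call in 13 of 16 alternatives and ATP5MK in 6. Of 76 mitochondrial ribosomal protein genes and 36 import and chaperone genes, 0 passed in edgeR with the culture block, DESeq2 or limma, 10 and 9 had an unadjusted p under 0.05, and the medians were 0.035 and 0.053. The experiment-by-fraction term brought 4 and 1 calls, all higher, and 3 higher and 1 lower among the 79 subunits. Over all 15920 genes that term called 647, and 13.4% had an unadjusted p under 0.05 without it.

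The 13 mRNAs that the study followed by RT-qPCR across the gradient were all tested, and 0 passed in edgeR (also with the experiment-by-fraction term), DESeq2 or limma, with 1 unadjusted p under 0.05. Their median was −0.0049, with 7 of 13 below 0. It was −0.077, with 11 of 13 below 0, when mitochondrial-genome genes were removed before TMM, and −0.067, also with 11 below 0, without the count filter. In each of these fits 5 of 13 lay above the median of all genes, which itself moved to −0.037 and −0.027. Under TMM over all genes, for 11 of them the HP/total change lay between −0.093 and 0.104, with 95% intervals inside −0.24 to 0.2003, so a change of 0.5 on the log2 scale lay outside the interval of each. HSPD1, a mitochondrial chaperone, was the highest at 0.10 (SE 0.04, adjusted p = 0.25), and its hnRNP U siRNA cultures were all above the control cultures. AKAP1, a scaffold that holds protein kinase A on mitochondria, had 0.09 (SE 0.05, adjusted p = 0.46) and rose in both total and HP RNA, by 0.53 and 0.59. PRODH, the lowest, had −0.68 (SE 0.53) at a mean log2 CPM of −0.74, with −2.03, 0.90 and −0.92 in the experiments, and its change could not be read at this depth. COX16 had −0.35 (SE 0.29), which is also wide. For RG4-containing mitochondrial mRNAs bound by hnRNP U, the study reports by RT-qPCR a decrease in polysome association after hnRNP U depletion. That was read as an HP/total ratio or as the distribution over the gradient, not from library counts. From its sequencing the study also reports RG4-containing mitochondrial transcripts with altered HP association. These measures were not compared with the values given here.

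Other lists gave single calls or none. ATF4, a stress transcription factor translated through upstream open reading frames, changed by 0.23 (SE 0.05, adjusted p = 0.020), with 0.24, 0.21 and 0.24 in the experiments, and was the only call of 13 such mRNAs, 6 of which had an unadjusted p under 0.05. Its call was lost in 10 of 16 alternatives. CLK1, a kinase of splicing factors, changed by 0.41 and was the only call of 19 SR protein and CLK genes. HNRNPH3 changed by 0.18, the only call of 27 other hnRNP genes, and MVD, of the mevalonate pathway, by 0.25, the only call of 23 cholesterol synthesis genes. Those 3 calls were lost in 8, 13 and 12 of 16 alternatives. For replication-dependent histones (13 genes), iron-responsive element mRNAs (8), selenoproteins (18), decay factors (16), immediate early genes (18) and chaperones (30), 0 passed in edgeR with the culture block, DESeq2 or limma. At an unadjusted p under 0.05 there were 2, 3, 4, 4, 3 and 10 of these, where 13.4% of all genes had such a p. With the experiment-by-fraction term 2 decay factors, 2 immediate early genes and 1 chaperone were called higher and 1 iron-responsive element mRNA lower, and 4 of the 13 uORF mRNAs were called higher. All 13 histone genes lay above the median of all genes, at a median of 0.21, but library preparation by poly(A) selection catches few of their transcripts. With mitochondrial-genome genes removed before TMM the medians of most of the lists in this and the preceding paragraphs, among them respiratory chain subunits (−0.028), initiation factors (−0.023), SR proteins and CLK genes (−0.035) and cholesterol synthesis (−0.022), turned negative, where that of all genes was −0.037. That scaling called 1 member lower in each of the SR protein and CLK, decay factor and cholesterol lists. In all, 33 of the 140 called genes were in a list and 107 were in none.

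Groups by sequence differed little. An RG4 motif, 4 runs of at least 3 G separated by 1 to 7 bases on the sense strand, lay in the canonical transcript of 3407 of the 12744 protein-coding genes. Of these 19 were called higher (0.558%) and 9 lower (0.264%), at a median of 0.025. Of the 9337 genes with no motif 60 were higher (0.643%) and 33 lower (0.353%), at a median of 0.032. With a motif in the 5′ UTR there were 7 higher and 1 lower of 1059, in the CDS 5 and 1 of 870, and in the 3′ UTR 13 and 8 of 2025, with medians of 0.028, 0.033 and 0.021. PTAR1 and BICD1, whose motifs are shown above, were among the 9 lower genes with a motif, and PTMS was among the 19 higher ones. Motif genes made up 21.4% of the lower and 24.1% of the higher genes, against 26.7% of all 12744.

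The property with the clearest gradient was the length of the 3′ UTR. Genes were split into 5 groups of about equal size. In the group with the shortest 3′ UTRs (up to 404 nt) 28 were called higher and 4 lower, the median was 0.073 and 72.8% lay above 0. In the next group (404 to 940 nt) there were 20 and 7, and in the middle group 9 and 9. The group with the longest (3192 nt and more) had 12 higher and 12 lower, a median of 0.0044 and 51.7% above 0. Over 12744 genes the Spearman correlation with length was −0.187, and −0.274 over the 6163 whose average log2 CPM reached 5. In the separate experiments it was −0.182, −0.141 and −0.0712. Without ribosomal protein genes, which gave 7 of the 28, it was −0.183 and the shortest group had a median of 0.071. GC content, CDS length, exon number and 5′ UTR length had Spearman correlations of 0.0811, −0.0791, −0.0877 and −0.0095. Expression level had −0.0276. Genes share these properties with each other and are not independent, so no p is given.

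**Figure D5:**
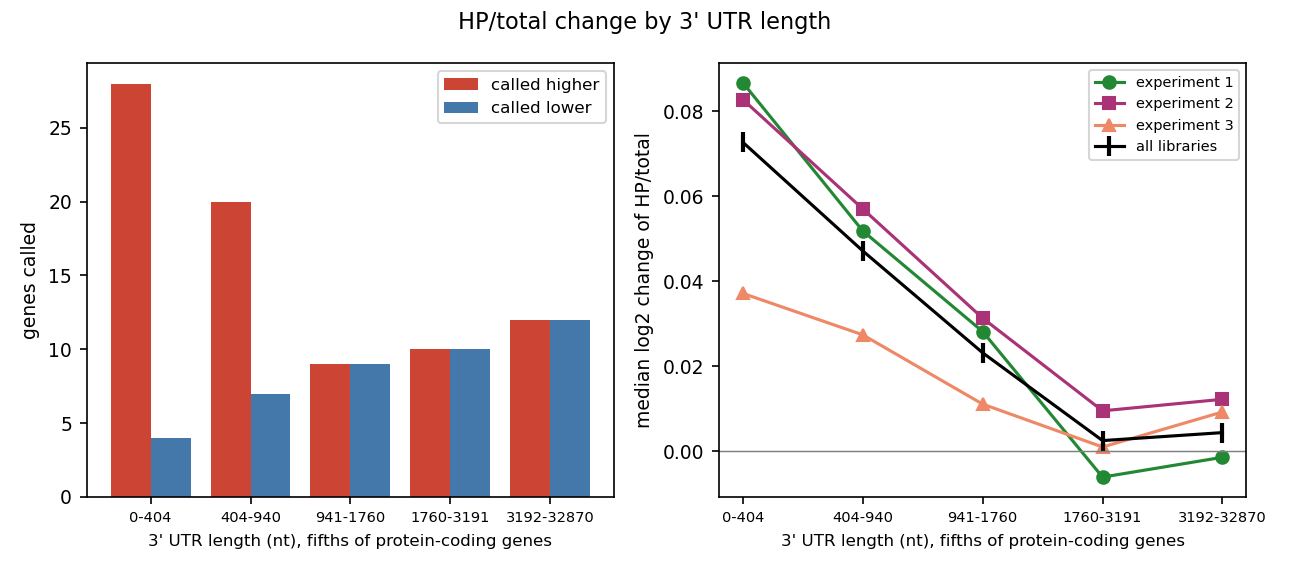
Protein-coding genes are split into 5 groups of about equal size by the 3′ UTR length of the canonical transcript, from shortest on the left to longest on the right. The left panel counts called genes (28 higher and 4 lower in the shortest group, 12 and 12 in the longest), and the right panel gives the median HP/total change over all libraries and in each experiment.

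The 7-base matches to the siRNA seeds, which mark possible off-targets, went along with that length. A match to siRNA 1 (GTATGCT) in the 3′ UTR was held by 930 genes, with 6 higher (0.645%) and 6 lower (0.645%, against 0.305% without it) and a median of −0.00069, against 0.032 without it. A match to siRNA 2 (TTGTAGT) was held by 1672 genes, with 10 higher (0.598%) and 4 lower (0.239%, against 0.343% without it) and a median of 0.013. A match to the control siRNA (CCCAAAT) was held by 1936 genes, with 11 higher (0.568%) and 10 lower (0.517%, against 0.296% without it) and a median of 0.018. The median 3′ UTR lengths of these groups were 3444, 3305 and 3144 nt, against 886 nt for the 9106 genes with no match to any of them. In total RNA the median siRNA effect was −0.27 for siRNA 1 matches, −0.085 for siRNA 2 matches and −0.025 for control siRNA matches, and in HP RNA it was −0.30, −0.099 and −0.036. The group with the longest 3′ UTRs had −0.11 in total RNA and −0.14 in HP RNA. The siRNA 1 group had lower medians in both kinds of RNA than the control-match group, while their HP/total medians differed by less. The groups were not matched for length and can share genes. No test of these groups was run.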

How the data were processed

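The authors deposited raw read counts per gene (GENCODE release 43, hg38), made with Trim Galore and STAR from poly(A)-selected, directional, single-end libraries; the submitters' notes add CASAVA 1.8. The strand setting is not given in the sources used here, so overlapping and antisense genes are uncertain. ERCC spike-ins are named in the methods, but no ERCC entry is in the table used here. Names and sequences came from GENCODE release 44 (62686 of 62703 identifiers matched). Genes were filtered by filterByExpr (minimum count 10), scaled by TMM and tested in edgeR 4.0.16 (R 4.3.3) with culture as block, Benjamini-Hochberg adjusted over 15920 genes; total and HP RNA were also fitted alone, without a block. SEs are the log2 change over the square root of F. CPM are TMM-scaled counts per 1000000 counts, and culture ratios use a prior count of 2. Labels name 3 experiments; the spread is between them. Counting used no molecular identifiers.

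Alternatives were DESeq2 1.42.0, limma 3.58.1 voom, other scalings, filters and blocks, and leaving out each culture. Leaving out an experiment was added after the data were seen. It is not among the 15 or 16 alternatives counted for each named gene. Leaving out a culture leaves 2 against 3. The interaction test was also run on simulated counts with culture effects. Those counts held no experiment-by-fraction effect, so the test was not checked under that dependence. The members and the 22 gene lists were chosen with earlier results of these data known. Named were HNRNPU, the 12 protein-coding genes with the largest change each way (adjusted p under 0.05, average log2 CPM from 3 up, same sign in 3 experiments), up to 4 called members of each list, 4 noncoding calls, and the lowest and highest of the RT-qPCR mRNAs; the other mitochondrial-genome mRNAs, AKAP1, COX16 and PTMS were added after their values were seen.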

Additional observations from a re-analysis of the deposited data

Results flagged for a closer look

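The results gathered here are the called genes named in the report, for which the siRNA effect in HP RNA differed from that in total RNA by edgeR's interaction test, and each value is the log2 HP/total change with 3 cultures per siRNA. Every one had the same sign in 3 of 3 experiments, but the calls came from these experiments. The rule for naming the largest changes also required it. Among all 15920 genes, 4039 were higher and 2132 lower in each of the 3.

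Lower values were those of HNRNPU at −1.09, NAPB at −0.94, THUMPD2 at −0.82, FAH at −0.65, FAM135A at −0.59, HPS1 at −0.59, PTAR1 at −0.56, GRTP1 at −0.52, BICD1 at −0.47, LRRC40 at −0.46, UBE3B at −0.45 and TMTC4 at −0.44.

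From the mitochondrial genome, MT-ATP8 stood at 1.17, MT-ND2 at 0.95, MT-ND1 at 0.94, MT-RNR2 at 0.82, MT-CYB at 0.80, MT-ND4L at 0.73, MT-ATP6 at 0.56, MT-RNR1 at 0.41, MT-ND5 at 0.40, MT-ND4 at 0.40 and MT-CO2 at 0.33, and the pseudogene MTND2P28 at 0.96. Among nuclear-encoded mRNAs, ZBTB20 stood at 0.69, CAPRIN2 at 0.60, WDR5B at 0.59, TBRG1 at 0.57, IFT172 at 0.57, ODC1 at 0.56, EIF4A2 at 0.44, CLK1 at 0.41 and ATP5MK at 0.38. RPS20 stood at 0.33, RPLP1 at 0.32, RPL12 at 0.32 and RPLP0 at 0.29. OAZ1 stood at 0.26, PTMS at 0.25, MVD at 0.25, UQCRH at 0.24, ATF4 at 0.23, PABPC1 at 0.21 and HNRNPH3 at 0.18. Of the noncoding RNAs, MALAT1 stood at 0.84, SNHG3 at 0.69, SNHG17 at 0.46 and SNHG1 at 0.32.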

How the results depend on the processing

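Of the HP/total calls (140, with 97 higher and 43 lower), all kept their sign in every alternative that tested them, but counts moved. DESeq2 called 69 (28 higher), limma voom 97 (62 higher), DESeq2 size factors gave 45 higher, upper-quartile factors 53 higher, and TMM without mitochondrial-genome genes 22 higher and 139 lower. Without a filter there were 284 calls (199 lower), and with a minimum count of 50 there were 157 higher. Without the replicate block 26 were called (13 higher, 13 lower), with a block by experiment 78 (48 higher), and with the culture block plus experiment by fraction 647 (494 higher, 153 lower). Leaving out a culture or a whole experiment gave 25 to 152 calls, 14 to 116 higher and 4 to 36 lower; the lowest totals came without experiment 3 (25) and without experiment 1 (44), and the smaller number of samples is part of each such fit. The cause of the other shifts was not tested. Among named genes that did not pass, MT-ND3 (0.02) turned to −0.018 with DESeq2, −0.0097 with its size factors, −0.000665 with upper-quartile factors and −0.038 without a filter, and ran from −0.098 to 0.14 when a culture or an experiment was left out. AKAP1 (0.09) ran from −0.033 without experiment 1 to 0.14 in those fits. The counts for total RNA and HP RNA alone moved by less than 1.5 times. Depth limited weakly expressed genes: the median SE was 0.089 over all genes and 0.054 at a mean log2 CPM of at least 5.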
